A study of Mus musculus with 12 samples.

Results

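A set of 8 genes of cholesterol synthesis and its control, Srebf2, Hmgcs1, Idi1, Sqle, Lss, Cyp51, Sc4mol and Insig1, were followed in murine hip cartilage before and after mechanical injury. The members were all array probes that carry any of these 8 symbols, out of 15424 gene symbols in the normalized table, and 7 of the 8 genes have a probe there. Total RNA of hip cartilage was hybridised to Illumina mouse BeadChips on 12 arrays, with 3 arrays in each of 4 groups: uninjured hips of WT mice (WT control), WT hips 4 h post injury (WT injured), and the same pair from Mapk9 KO mice. All mice were C57BL6 and 4 to 6 weeks old per the labels. The KO mice are labelled as lacking Mapk9, which encodes the stress kinase JNK2, and the sources used here do not say how the allele was made or whether the deletion is limited to a cell type. The injury was avulsion of the femoral epiphysis. Control cartilage was snap-frozen at once, whereas injured cartilage was kept in serum-free medium until 4 h, so injury and culture cannot be told apart in any comparison given here. Each array held pooled hips of several mice per the methods, which describe the control and injured sets and do not mention the KO arrays, and p-values measure the spread between such pools.

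The targeted gene was lower in the libraries labelled Mapk9 KO. At the brighter Mapk9 probe, ILMN_2591066, the normalized log2 signal was 10.88, 10.90 and 10.50 in WT control and 9.14, 9.28 and 9.15 in Mapk9 KO control, a difference of -1.57 ± 0.21 (SE, n = 3 and 3, limma adjusted p = 0.0151). This probe was still detected on all 6 Mapk9 KO arrays, at 8.69 to 9.28. The dimmer probe, ILMN_2716527, was not detected on any Mapk9 KO array. Where the probes lie relative to the deleted part is not given in the sources used here. Between 16930 and 18969 of 45281 probes were detected per array (detection p under 0.05), and the normalized array medians lay between 7.55 and 7.70. Of 10 listed chondrocyte genes 8 were measured, and none of the 8 was undetected on all arrays. The same held for the measured markers of every other cell type read here, so detection does not set chondrocytes apart from them. Markers of several other cell types moved with injury. Of 6 measured markers each for erythroid, osteoblast and endothelial cells, at most 2 were called in either genotype. All 10 skeletal muscle markers fell in both genotypes, and their summed linear signal went from 66137 to 84470 in WT control to 6907 to 30249 in WT injured, and from 98447 to 159858 in Mapk9 KO control to 9108 to 26348 in Mapk9 KO injured. Of 5 measured adipocyte markers 2 were called lower in WT and 4 in Mapk9 KO. Their summed signal went from 2408 to 7068 in WT control to 628 to 1053 in WT injured, and from 4860-14432 to 485-743 in Mapk9 KO. That of 8 chondrocyte markers went from 27144-45788 in control to 66202-80119 in injured arrays of WT and from 26526-40204 to 61173-74257 in Mapk9 KO, with 6 of the 8 rising in each. Of 7 neutrophil granule markers 2 rose in each genotype, Elane (1.96 in WT and 1.10 in Mapk9 KO) and Ngp (1.65 and 1.17), and their summed signal went from 48572-79325 in control to 96565-111335 in injured arrays of WT and from 62097-91198 to 78719-108437 in Mapk9 KO. In such bulk samples a larger share of one cell type and more RNA per cell cannot be told apart, and the part of the changed cell mixture in the changes below was not tested.

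Cells make cholesterol from acetyl-CoA through mevalonate, isoprenoid units, squalene and lanosterol. SREBP2, the product of Srebf2, is a membrane-bound transcription factor that is released when sterols in the endoplasmic reticulum are low and then switches on most enzymes of this route. INSIG1 holds the SREBP complex in the endoplasmic reticulum when sterols are plentiful and is itself an SREBP target. Chondrocytes lie in a tissue without blood vessels and take up or make the cholesterol that their membranes and hedgehog signalling need.

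SREBPs bind the sterol regulatory element next to sites of the factors NF-Y (CCAAT) and Sp1 (GC box), so the promoters of the members are shown for these letters. Windows of 300 bases, from 250 bases before to 50 after the RefSeq start (GRCm38.p6), were at hand for 7 of the 8 members, all but Sqle. On either strand, TCACNCCAC was in 1 of these 7 windows, that of Hmgcs1, against 1.24% of all 32851 windows. CCAAT was in 7 of 7 against 37.4% of all windows, and GGGCGG in 7 of 7 against 35.7%. Of 11 other sterol synthesis enzymes with a window, 10 held CCAAT and 10 held GGGCGG. The 250 bases before the start are printed for 3 members. These are Hmgcs1 as the one with the element, Insig1 as the member with the largest change among main probes (defined below) in both genotypes, and Sc4mol for its run of CCAAT and GC boxes. Capitals mark matches of the 3 motifs on either strand (ATTGG is CCAAT and CCGCCC is GGGCGG read on the other strand). The Hmgcs1 window lies at chr13:119690101-119690350 on the plus strand, with its element beginning at -137, the Insig1 window at chr5:28071162-28071411 on the plus strand and the Sc4mol window at chr8:64733579-64733828 on the minus strand.
Hmgcs1: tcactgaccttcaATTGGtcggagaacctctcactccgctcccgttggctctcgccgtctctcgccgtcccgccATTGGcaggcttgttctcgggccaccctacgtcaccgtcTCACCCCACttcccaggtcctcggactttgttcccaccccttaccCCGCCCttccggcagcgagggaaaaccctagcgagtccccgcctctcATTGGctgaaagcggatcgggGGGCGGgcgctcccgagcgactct
Insig1: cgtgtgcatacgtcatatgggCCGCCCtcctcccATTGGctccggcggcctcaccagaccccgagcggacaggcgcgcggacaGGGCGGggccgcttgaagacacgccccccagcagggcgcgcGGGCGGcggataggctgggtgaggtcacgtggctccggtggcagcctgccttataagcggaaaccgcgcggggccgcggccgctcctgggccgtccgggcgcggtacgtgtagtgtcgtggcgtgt
Sc4mol: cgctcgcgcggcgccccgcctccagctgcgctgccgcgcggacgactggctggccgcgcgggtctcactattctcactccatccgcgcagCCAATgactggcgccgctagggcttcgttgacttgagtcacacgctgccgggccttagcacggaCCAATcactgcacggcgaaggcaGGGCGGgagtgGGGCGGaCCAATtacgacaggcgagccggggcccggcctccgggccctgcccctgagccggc
A match is a description of the letters in these windows and not of binding. The windows of Insig1 and Sc4mol do not hold the element as spelled here.

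After injury the 7 measured members were all higher, in both genotypes. Of the 7, 6 rose in WT (fold change above 2 and limma adjusted p under 0.05) and 7 rose in Mapk9 KO, and 0 fell in either. Over all genes 7.51% rose and 7.16% fell in WT, and 9.01% rose and 9.55% fell in Mapk9 KO. The median change of the members was 1.72 on the log2 scale in WT and 2.09 in Mapk9 KO, beside -0.02 and -0.04 over all genes. A gene was counted by its main probe, the one with the highest mean over the 12 arrays among those that carry its symbol in the normalized table. The WT and the Mapk9 KO comparison share no arrays, though same-numbered arrays deviated together across groups (correlations of 0.153 to 0.390). For each of the 7 main probes the 3 injured arrays lay above the 3 control arrays in both genotypes, where 20.5% of all genes did so in WT and 23.7% in Mapk9 KO. An exact two-sided permutation test over 3 against 3 arrays then gives p = 0.1, the smallest p it allows, so the calls rest on the fit across all probes.

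**Figure D1:**
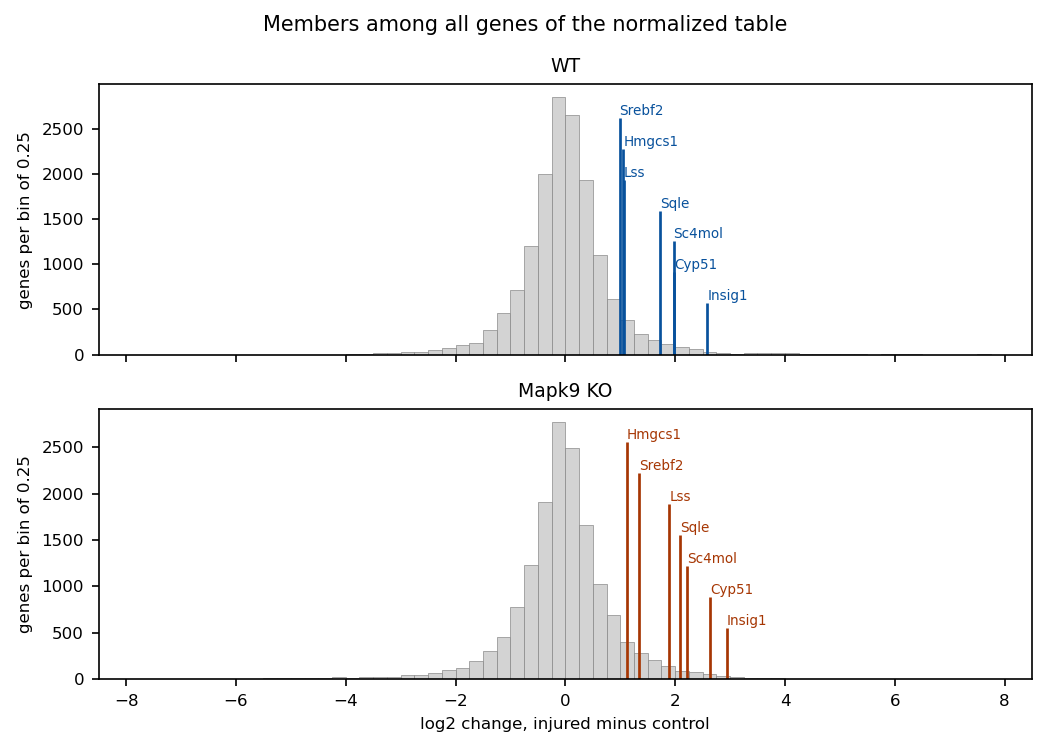
Grey bars give the number of genes (main probe of each of 15424) per bin of log2 change, injured minus control, in WT (top) and Mapk9 KO (bottom), and coloured lines mark the 7 measured members, with line height used only to separate the names. All members lie on the right flank, from Srebf2 at 0.99 to Insig1 at 2.59 in WT and from Hmgcs1 at 1.12 to Insig1 at 2.94 in Mapk9 KO.

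Hmgcs1 encodes the cytosolic HMG-CoA synthase, which acts early in the route, before mevalonate is formed. Its normalized log2 signal was 12.31, 12.21 and 11.79 in WT control and 13.35, 13.27 and 12.86 in WT injured, a change of 1.06 ± 0.23 (SE, adjusted p = 0.0077). The Mapk9 KO arrays read 12.08, 12.19 and 11.62 in control and 13.15, 13.13 and 12.98 in injured, a change of 1.12 ± 0.20 (adjusted p = 0.00108). The third replicate was the lowest array in each of the 4 groups. These changes lay close to the limit of 2-fold: the WT change was under it without WT control replicate 3 (0.90) and without WT injured replicate 1 (0.96), and the Mapk9 KO change without Mapk9 KO control replicate 3 (0.95).

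Sqle encodes squalene epoxidase, the first step of the route that needs oxygen. At its brighter probe, ILMN_2737163, the log2 signal was 9.59, 8.96 and 9.05 in WT control and 10.99, 10.92 and 10.86 in WT injured, a change of 1.72 ± 0.22 (SE, adjusted p = 0.000442). In the KO mice the values were 9.02, 9.21 and 8.99 in control and 11.22, 11.10 and 11.17 in injured, a change of 2.09 ± 0.17 (adjusted p = 4.7e-06). The injured arrays were tightly grouped, with an SD of 0.07 in WT and 0.06 in Mapk9 KO. A dimmer probe, ILMN_2600348, stood at 6.30, 4.58 and 5.96 in WT control and 7.75, 5.93 and 7.01 in WT injured. There the WT groups overlapped and the change of 1.28 ± 0.50 did not pass (adjusted p = 0.0894). With the replicate number as a block it passed (SE 0.18, adjusted p = 0.00295), each WT injured array lying above the control array of the same number, with 1 of 3 control arrays detected. In Mapk9 KO the same probe stood at 5.63, 4.69 and 5.10 in control, not detected on any of the 3 arrays, and at 9.08, 7.71 and 8.83 in injured. The Mapk9 KO rise at this probe was at least 6.08-fold, the dim group being set to the lowest signal of a detected probe on each array (fitted log2 change 3.40 ± 0.35, adjusted p = 2.81e-05).

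Lss encodes lanosterol synthase, which closes the sterol rings. Its log2 signal was 7.23, 6.81 and 7.10 in WT control and 7.80, 8.29 and 8.26 in WT injured, a change of 1.07 ± 0.22 (SE, adjusted p = 0.00608). Without Mapk9 the signal was 6.40, 6.12 and 6.95 in control and 8.32, 8.28 and 8.54 in injured, a change of 1.90 ± 0.22 (adjusted p = 8.03e-05). Neither pair of groups overlapped. The WT change went just under 2-fold without WT control replicate 2 (0.95), WT injured replicate 2 (0.99) or WT injured replicate 3 (0.999).

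Cyp51 encodes lanosterol 14-alpha-demethylase, and Sc4mol, now named Msmo1, the sterol C4-methyl oxidase that acts soon after it. The log2 signal of Cyp51 was 7.59, 7.11 and 7.001 in WT control and 9.51, 8.999 and 9.14 in WT injured, a change of 1.98 ± 0.23 (SE, adjusted p = 0.000274). KO cartilage gave 7.35, 7.27 and 6.91 in control and 9.98, 9.53 and 9.95 in injured, a change of 2.64 ± 0.20 (adjusted p = 3.56e-06). Every injured array lay at least 1.41 log2 units above every control array of its genotype. The log2 signal of Sc4mol was 9.33, 9.38 and 9.29 in WT control and 11.31, 11.42 and 11.18 in WT injured, a change of 1.97 ± 0.19 (adjusted p = 8.44e-05). Arrays of Mapk9 KO hips stood at 9.34, 9.60 and 9.25 in control and 11.61, 11.66 and 11.57 in injured, a change of 2.22 ± 0.17 (adjusted p = 4.1e-06). Sc4mol had the narrowest spread of the 7 main probes in WT control and in Mapk9 KO injured, with an SD of 0.05 and 0.04.

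**Figure D2:**
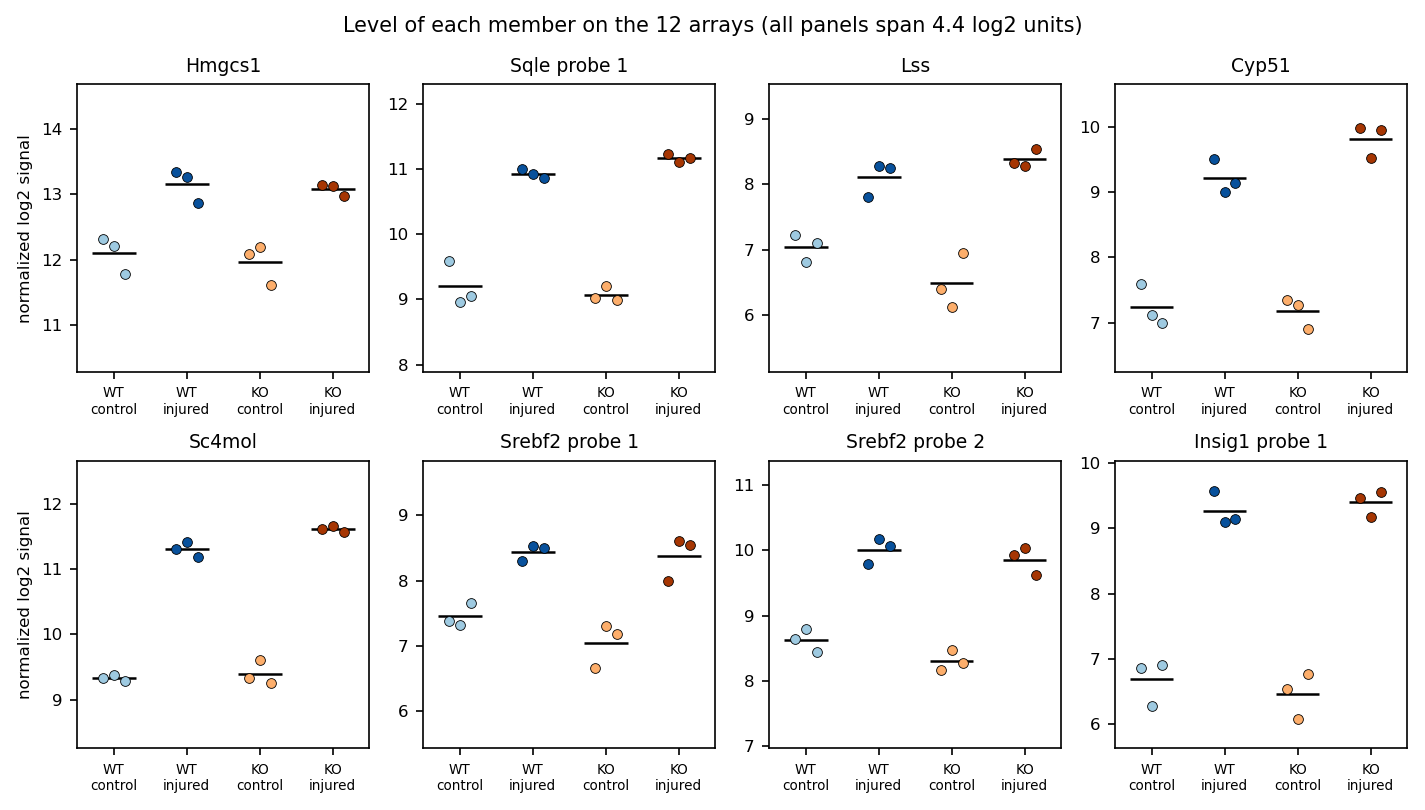
Each panel gives the normalized log2 signal of one member probe on the 12 arrays (points, 3 per group, from replicate 1 on the left to 3 on the right, bars for the group mean), and every panel spans the same number of log2 units. The injured groups lie above the control groups of their genotype in all 8 panels, with no overlap.

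Srebf2, the regulator of the route, had the smallest change of the 7 main probes in WT and the next to smallest in Mapk9 KO. At the probe that carries its symbol, ILMN_1234082, the log2 signal was 7.39, 7.32 and 7.66 in WT control and 8.31, 8.53 and 8.49 in WT injured, a change of 0.99 ± 0.20 (SE, adjusted p = 0.00532), which is 1.98-fold and just short of the 2-fold limit. For Mapk9 KO the readings were 6.66, 7.30 and 7.18 in control and 7.999, 8.61 and 8.55 in injured, a change of 1.34 ± 0.23 (adjusted p = 0.00108), which passed. The WT call turned on small steps, since leaving out the third WT control array (1.09) or the first WT injured array (1.06) put the change above 2-fold. A brighter probe, ILMN_1223598, is called Srebp2 in the normalized table and Srebf2 in the table of intensities. Its signal was 8.65, 8.80 and 8.45 in WT control and 9.80, 10.17 and 10.07 in WT injured, a change of 1.38 ± 0.20 (adjusted p = 0.00105). The Mapk9 KO arrays read 8.17, 8.48 and 8.27 in control and 9.93, 10.03 and 9.62 in injured, a change of 1.55 ± 0.18 (adjusted p = 8.51e-05). By this probe all 7 measured members passed in both genotypes.

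Insig1, the sterol-sensing brake on SREBP, showed the largest change of the 7 main probes in both genotypes. At ILMN_1245272 the log2 signal was 6.87, 6.28 and 6.91 in WT control and 9.58, 9.10 and 9.14 in WT injured, a change of 2.59 ± 0.24 (SE, adjusted p = 7.6e-05). In the KO mice the values were 6.54, 6.08 and 6.77 in control and 9.47, 9.17 and 9.56 in injured, a change of 2.94 ± 0.21 (adjusted p = 2.63e-06). This is 6.00-fold in WT and 7.65-fold in Mapk9 KO. The gene's 3 probes in the table did not move alike. A probe that shares 15 bases with the first one, ILMN_2606693, rose by 1.73 ± 0.36 in WT (adjusted p = 0.00675) and by 2.73 ± 0.28 in Mapk9 KO (adjusted p = 3e-05), and so is not an independent reading. It was detected on 2 of 3 WT control arrays and 1 of 3 Mapk9 KO control arrays, so these sizes are read against values near background. The probe that lies farthest along the transcript, ILMN_2895388, stood at 6.45, 6.28 and 6.25 in WT control and 6.00, 5.57 and 6.85 in WT injured, with a difference of -0.19 (95% interval -0.85 to 0.48, adjusted p = 0.695). In Mapk9 KO it stood at 6.83, 6.42 and 6.95 in control and 5.74, 6.43 and 6.90 in injured, with a difference of -0.38 (95% interval -0.998 to 0.24, adjusted p = 0.321). Its groups overlapped in both genotypes, and it was detected on 10 of 12 arrays, so the call for Insig1 rests on the probes that begin at bases 652 and 687 of the annotated transcript and is not seen at the probe that begins at base 2239.

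**Figure D3:**
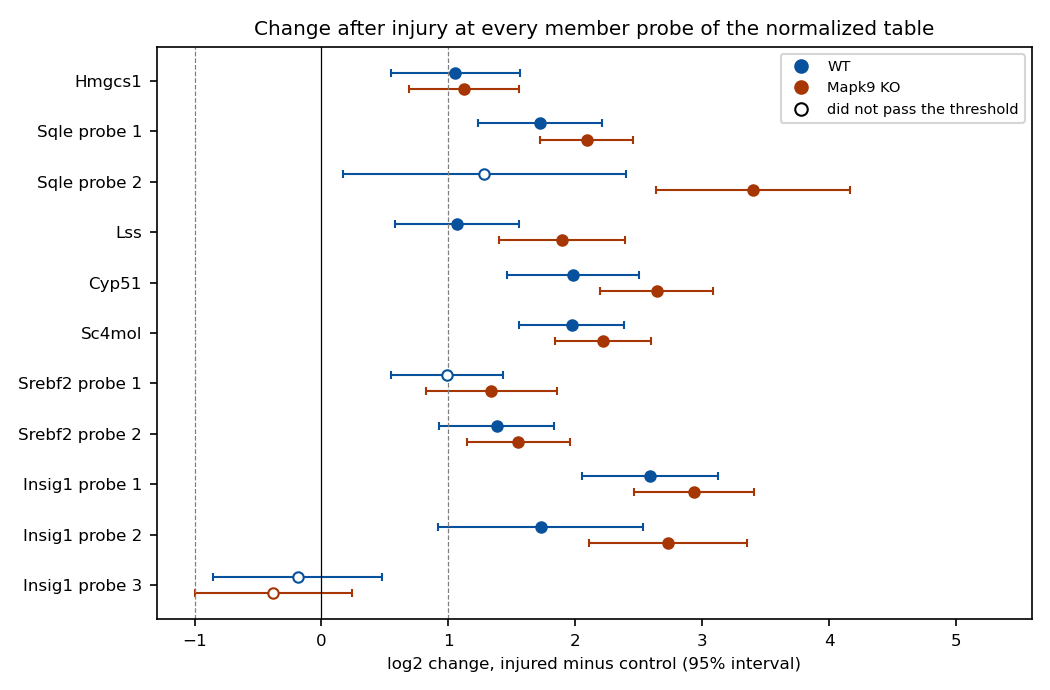
Points give the log2 change, injured minus control, at each of the 11 member probes of the normalized table in WT (blue) and Mapk9 KO (brown-red), with 95% intervals from limma. Filled points passed the threshold, open points did not, and dashed lines mark 2-fold. All probes lie to the right of 0 except the third Insig1 probe, whose intervals of -0.85 to 0.48 and -0.998 to 0.24 hold 0.

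Idi1, the isopentenyl isomerase that supplies the other isoprenoid unit, has 1 probe on the array, ILMN_2590923, outside the normalized table. It was not detected on any of the 12 arrays, with intensities from 117 to 188, so its level and its change were not measurable here. A further probe each of Sqle, Lss and Insig1 outside the table was likewise detected on 0 of 12 arrays. Of the 15 member probes on the array, 11 were in the normalized table.

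The next question was whether the members differ by genotype. In control cartilage 0 of 7 members passed for genotype, where 0.11% of all genes did. Their Mapk9 KO minus WT differences ran from -0.56 for Lss to 0.07 for Sc4mol, the lowest adjusted p was 0.772, and 0 had an unadjusted p under 0.05. In injured cartilage 0 of 7 passed, beside 0.169% of all genes. The differences ran from -0.07 for Hmgcs1 to 0.60 for Cyp51, whose 95% interval was 0.16 to 1.05 (unadjusted p = 0.013, limma adjusted p = 0.277). Cyp51 was the 1 member whose main probe had an unadjusted p under 0.05 there. Among the other probes, the second Insig1 probe ILMN_2606693 had a difference of 0.74 (limma adjusted p = 0.275), and the dim Sqle probe is given with the interaction.

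The injury change was larger in Mapk9 KO than in WT for 7 of 7 members, by a median of 0.35 log2 units. It was also larger in Mapk9 KO for 52.9% of the 1158 genes that rose in WT and for 45.5% of all genes. Of the 1596 genes that rose in either genotype it was larger in Mapk9 KO for 65.8%. Genes called up in a genotype were picked for a large change there, so neither called set is a neutral yardstick. In the test of the difference itself (interaction, limma, all 12 arrays) 0 of 7 members passed, and 0% of all genes did. The single member with an unadjusted p under 0.05 was Lss, whose difference of 0.83 had a 95% interval of 0.15 to 1.51 (limma adjusted p = 0.417). For Cyp51 the difference was 0.66 (-0.00059 to 1.32, adjusted p = 0.504), and for Hmgcs1, the smallest, it was 0.07 (-0.57 to 0.70, adjusted p = 0.96). For the main probes, fitted without a block, the upper ends of the intervals lie above 1 log2 unit for Lss, Cyp51, Insig1 and Srebf2. They lie below it for Sqle, Sc4mol and Hmgcs1. In that fit a larger rise in Mapk9 KO by 2-fold lies within the interval for the first 4 genes and outside it for the other 3. With the replicate number as a block the SE for Insig1 was 0.22, against 0.33 without it, and intervals are not given for the blocked fit. At the second Insig1 probe ILMN_2606693, near background in control, the interaction was 1.00 (-0.10 to 2.11). At the dim Sqle probe ILMN_2600348 the interaction did not pass (adjusted p = 0.362) and passed with the replicate number as a block (adjusted p = 0.0259), but it was detected on 1 of 3 WT control arrays and 0 of 3 Mapk9 KO control arrays, so the size of that difference is not measured. In injured cartilage, where it was detected on every array, its Mapk9 KO minus WT difference was 1.65 (adjusted p = 0.229, and 0.021 with the block). The bright Sqle probe did not follow it, with an interaction of 0.37 (adjusted p = 0.671, and 0.46 with the block).

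Other enzymes of the route were read beside the members. Of 13 further sterol synthesis enzymes 12 had a probe in the normalized table, 1 of them (Sc5d) detected on no array, 4 rose in WT and 3 in Mapk9 KO, 0 fell, and 3 rose in both, beside 7.51% of all genes up in WT and 9.01% in Mapk9 KO. Their median change was 0.04 in WT and 0.16 in Mapk9 KO. With quantile normalization and no background correction 1 rose in each genotype. Mvd, the mevalonate diphosphate decarboxylase, rose by 1.53 ± 0.24 in WT (adjusted p = 0.00152) and 1.44 ± 0.19 in Mapk9 KO (adjusted p = 0.000181). Pmvk, the kinase before it, rose by 1.04 ± 0.19 (adjusted p = 0.00376) and 1.14 ± 0.26 (adjusted p = 0.00527). Fdps, the farnesyl diphosphate synthase, rose by 1.39 ± 0.20 in WT (adjusted p = 0.000895), while its 0.89 ± 0.18 in Mapk9 KO was under 2-fold (adjusted p = 0.00301). A second Fdps probe, ILMN_1232741, was above 2-fold in both (1.08 and 1.16). Hsd17b7, a 3-ketosteroid reductase of C4 demethylation, rose by 1.08 ± 0.20 in WT (adjusted p = 0.00335) and 1.56 ± 0.17 in Mapk9 KO (adjusted p = 3.92e-05).

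Set in pathway order with the members among them, the enzymes that rose lie between HMG-CoA synthase and C4 demethylation. Of 6 measured enzymes of mevalonate and isoprenoids 4 rose in WT and 3 in Mapk9 KO, of 2 from squalene to lanosterol both rose in each, and of 6 of lanosterol demethylation 3 rose in each. Over all genes 7.51% rose in WT and 9.01% in Mapk9 KO, and these stage counts include the members. Of 3 listed enzymes of the final steps, 1 was detected on all 12 arrays. This was Ebp, the sterol isomerase, with a change of 0.02 ± 0.20 in WT (adjusted p = 0.954) and -0.08 ± 0.19 in Mapk9 KO (adjusted p = 0.767). Sc5d was detected on 0 of 12 arrays, so its change was not measurable here, and Dhcr7 was detected on 0 of 3 Mapk9 KO control arrays and 1 of 3 WT control arrays, too near background for a change to be read. Where along the final steps the rise ends can therefore not be told from these probes. The main probes of Mvk, Tm7sf2, Lbr, Nsdhl and Acat2 did not pass in either genotype. A second Mvk probe, ILMN_1244594, was detected on 0 of 3 control arrays and 3 of 3 injured arrays in each genotype, so its fold was not measured (adjusted p = 0.0036 in WT and 0.00332 in Mapk9 KO), and the probes of this mevalonate kinase disagree. The stages were drawn up with these results known and carry no test.

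**Figure D4:**
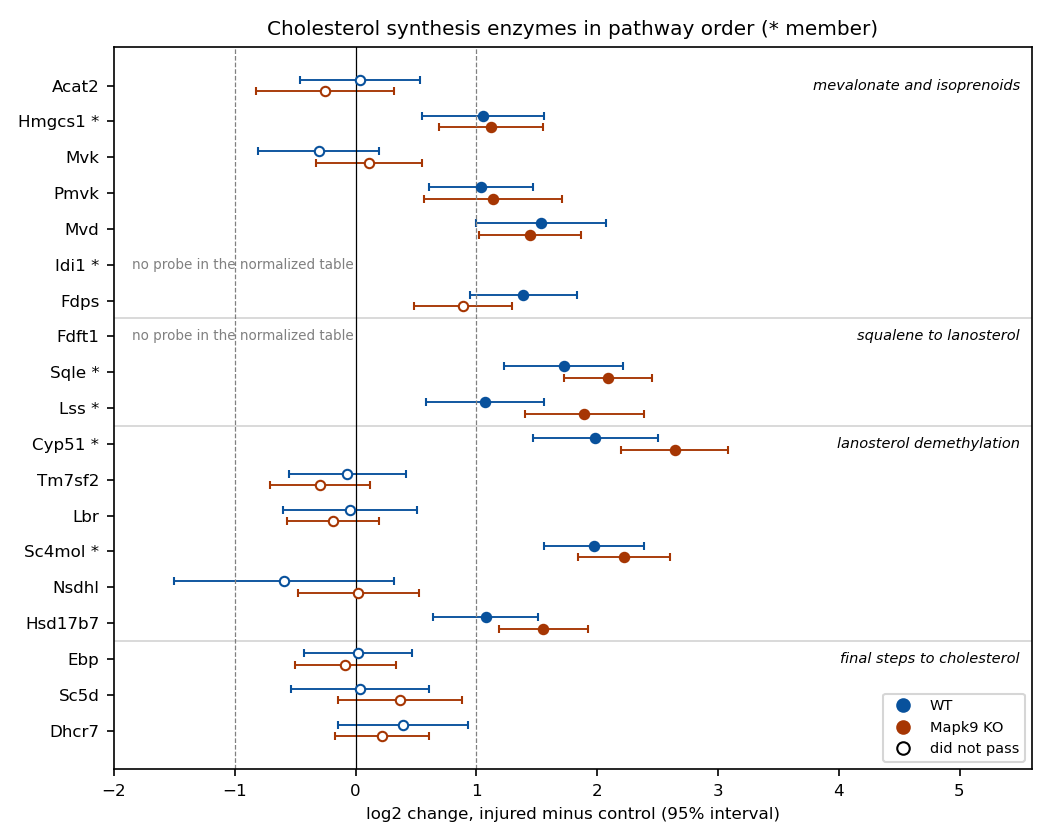
Points give the log2 change, injured minus control, for the main probes of 19 cholesterol synthesis enzymes in the order of the route from top to bottom, in WT (blue) and Mapk9 KO (brown-red) with 95% intervals. Filled points passed the threshold, stars mark members, and Idi1 and Fdft1 have no probe in the normalized table. The lowest filled points are those of Hsd17b7; of the 3 enzymes below it Sc5d was not detected on any array and Dhcr7 lay near background.

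Among the other regulators of SREBP, of 6 measured genes 0 rose and 1 fell in WT, and 1 rose and 1 fell in Mapk9 KO, counts near the shares of all genes (7.51% up and 7.16% down in WT, 9.01% and 9.55% in Mapk9 KO). Nr1h3, which encodes the oxysterol receptor LXR-alpha, fell in both genotypes. Its log2 signal went from 8.48, 8.45 and 8.37 to 7.27, 7.65 and 7.26 in WT (-1.04 ± 0.20, adjusted p = 0.00426) and from 8.37, 8.66 and 8.42 to 7.04, 7.20 and 6.87 in Mapk9 KO (-1.45 ± 0.18, adjusted p = 0.000106). The WT call of Nr1h3 was lost without WT injured replicate 1 or 3 and with array medians subtracted, and the calls in both genotypes were lost under quantile normalization without background correction. Srebf1, whose product mainly drives fatty acid synthesis, was not detected in Mapk9 KO control and rose there by at least 1.47-fold (adjusted p = 0.00221), a call lost without Mapk9 KO control replicate 2, under normexp and under quantile normalization without background correction, and its WT change of 0.84 ± 0.28 did not pass (adjusted p = 0.0535). Scap, Insig2, Mbtps1 and Nr1h2 did not pass in either genotype.

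For uptake and lysosomal release, of 8 measured genes 1 rose and 1 fell in each genotype. These counts lie near the shares of all genes given above (7.51% up and 7.16% down in WT, 9.01% and 9.55% in Mapk9 KO). The 1 that rose was not called in either genotype under normexp, quantile normalization without background correction or the methods' t-test. Stard4, a carrier of sterol between membranes, was just under the limit with 0.99 ± 0.19 in WT and 0.91 ± 0.17 in Mapk9 KO (adjusted p = 0.00448 and 0.00155). Scarb1, the HDL receptor, was not detected on any control array and was at least 1.22-fold higher in WT injured (adjusted p = 0.0258) and at least 1.13-fold higher in Mapk9 KO injured (adjusted p = 0.00308), a call lost in each genotype when the third injured array was left out. Lipa, the lysosomal acid lipase that frees cholesterol from its esters and is abundant in macrophages, fell by 1.26 ± 0.24 in WT (adjusted p = 0.00426) and by 1.79 ± 0.21 in Mapk9 KO (adjusted p = 7.26e-05), and the WT call was lost under the methods' t-test. Beside it, 4 of 6 macrophage markers fell in WT and 5 of 6 in Mapk9 KO, with a summed signal of 7574 to 10714 in WT control, 11863 to 15804 in WT injured, 9735 to 11920 in Mapk9 KO control and 12926 to 17758 in Mapk9 KO injured, and the part of these cells in the Lipa change was not tested. Lyz2 was the 1 marker of the 6 with a higher mean after injury, by 0.95 in WT and 0.96 in Mapk9 KO on the log2 scale, both under 2-fold.

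Of 9 measured genes of efflux, storage and oxysterols 2 rose and 0 fell in WT, and 3 rose and 1 fell in Mapk9 KO, beside 7.51% up and 7.16% down over all genes in WT and 9.01% and 9.55% in Mapk9 KO. Ch25h makes 25-hydroxycholesterol, an oxysterol that holds SREBP back. Its log2 signal was 6.06, 5.18 and 4.97 in WT control and 6.98, 7.04 and 6.86 in WT injured (1.55 ± 0.28, adjusted p = 0.00303), with 1 of the 3 control arrays detected, so the size is uncertain. In Mapk9 KO it was not detected in control and was at least 2.59-fold higher in injured (adjusted p = 3.57e-06). Soat2, an enzyme of cholesterol ester storage, stood at 6.66, 6.46 and 6.24 in WT control and 8.21, 8.06 and 7.81 in WT injured, a change of 1.57 ± 0.21 (adjusted p = 0.000561). In Mapk9 KO Soat2 was not detected in control and was at least 4.91-fold higher in injured, at 8.24, 8.21 and 8.24 (adjusted p = 2.69e-06). Its isoenzyme Soat1 rose by 1.23 ± 0.22 in Mapk9 KO (adjusted p = 0.00123) at its main probe, with 0.99 ± 0.23 in WT (adjusted p = 0.0102, under 2-fold). A brighter probe that has the Soat1 symbol in the table of intensities alone, ILMN_2419998, did not pass, with 0.08 in WT and -0.08 in Mapk9 KO, so the count of 3 rests on the choice of probe. Abcg1, a cholesterol exporter under LXR, was at least 1.25-fold lower in Mapk9 KO injured, where it was not detected, than in control (adjusted p = 0.000336), and this fall was not called under normexp or quantile normalization without background correction. With the latter the counts of genes that rose were 0 in WT and 1 in Mapk9 KO, and under the methods' t-test 1 rose in WT.

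Fatty acid synthesis is the neighbouring SREBP1 programme. Of 9 measured genes 1 rose and 0 fell in WT, and 1 rose and 2 fell in Mapk9 KO. Me1, the malic enzyme, rose in WT (1.16 ± 0.31, adjusted p = 0.0216), a call lost when WT control replicate 2 or the third WT injured array was left out, under quantile normalization without background correction and under the methods' t-test, while its second probe did not pass (adjusted p = 0.069). Scd2 rose in Mapk9 KO (1.37 ± 0.22, adjusted p = 0.000676), a call lost under quantile normalization without background correction, and Scd1 and Acss2 fell in Mapk9 KO (-1.68 ± 0.42 and -1.43 ± 0.36, adjusted p = 0.00923 and 0.00922). Fasn and Acaca had no probe in the table. Scd1 stood at 10.83, 10.49 and 12.05 in WT control and 11.01, 11.64 and 12.92 in Mapk9 KO control. In both genotypes its highest control array was replicate 3, the array with the highest adipocyte marker sum (7068 in WT and 14432 in Mapk9 KO), and the part of fat in these changes was not tested. Without Mapk9 KO control replicate 3 the counts there were 2 up and 1 down, and under the methods' t-test 0 fell. These counts lie near the shares of all genes, 7.51% up and 7.16% down in WT and 9.01% and 9.55% in Mapk9 KO, and so are no result about the list.

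The pattern over the 12 arrays was compared with that of all other probes. The 5 probes with the highest Pearson correlation with the mean of the 7 members' standardized main probes were those of Edn2 (0.999), Coq10b (0.997), Arc (0.996), Tbc1d1 (0.996) and Tnfrsf10b (0.995). The members' own main probes correlated with that mean at 0.93 for Srebf2 to 0.99 for Sqle. The 12 points fall into control and injured arrays, so these values mostly restate that step and describe likeness only. Edn2, which encodes endothelin-2, was not detected on any control array and stood at 11.12, 10.71 and 10.67 in WT injured and 11.08, 11.43 and 11.30 in Mapk9 KO injured. Coq10b encodes a protein of mitochondrial ubiquinone function, and its log2 signal went from 9.29, 9.01 and 9.15 to 10.91, 10.83 and 10.76 in WT.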

How the data were processed

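Hip cartilage RNA was measured on 12 Illumina mouse BeadChips. The authors subtracted an array-wise background taken from the negative controls, applied vsn, and deposited log2 values for 21004 probes. They also deposited uncorrected intensity values and a detection p-value for each of 45281 probes. The probe filter behind the log2 table and the versions of R and vsn are not given in the sources used here.

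Groups were taken from the labels. Each comparison was fitted with limma 3.58.1 in R 4.3.3 on the log2 values of its 6 arrays (interaction, all 12), without a block, with Benjamini-Hochberg adjustment over all 21004 probes, and the fits were tested on simulated data. To pass, a gene needed over 2-fold change together with adjusted p below 0.05 (interaction, adjusted p alone). A probe was detected at a detection p under 0.05. The named genes were all member probes, Mapk9, genes of the lists that passed, and the 5 probes most like the members. Others named were chosen after their values were seen. The members and lists were chosen with earlier results of these data known. Some genes of the lists are not reported here and were left out of the counts. Promoter windows came from RefSeq (GRCm38.p6). The build of the probe coordinates is not given in the sources used here, and none is printed.

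Replicate numbers come from the sample titles. Deviations from group means correlated at 0.153 to 0.390 between same-numbered arrays (18 pairs) and at -0.289 to 0.083 between others (36 pairs), so blocking on that number was run as an alternative. Further alternatives were other normalizations, filters, fold limits, the methods' t-test and leaving out each array. The number of arrays limits the precision.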

Additional observations from a re-analysis of the deposited data

How the results depend on the processing

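Counted by main probes, with the replicate block the number of members that rose was 6 in WT and 7 in Mapk9 KO, and 0 members passed for genotype or interaction. Over the other alternatives the WT count ran from 4 (quantile normalization without background correction, or the methods' t-test with Benjamini-Hochberg adjustment) to 7, and the Mapk9 KO count from 6 to 7. Leaving out 1 array gave 5 to 6 in WT and 6 to 7 in Mapk9 KO. In all of these 0 members fell and 0 passed for genotype or interaction, and no value of a member probe reversed among those called. In WT, Hmgcs1 fell short of 2-fold under normexp background correction with quantile normalization (0.82) and under quantile normalization alone (0.81), and of the adjusted p under the t-test (0.0616). Lss did so under quantile normalization alone (0.70) and the t-test (adjusted p = 0.0506), and Insig1 probe ILMN_2606693 likewise (0.84, and adjusted p = 0.11). The Srebf2 probe ILMN_1234082 passed in WT with array medians subtracted (1.04) or normexp (1.01), and did not pass in Mapk9 KO under quantile normalization alone (0.89). The dim Sqle probe ILMN_2600348 is no main probe. It passed with the replicate block in WT (adjusted p = 0.00295), for genotype in injured cartilage (adjusted p = 0.021) and for interaction (adjusted p = 0.0259), and in WT also without WT injured replicate 2 (1.77). The causes were not tested. Normexp on all probes of the array, which gave the same WT count of 6, was chosen after seeing the data. The Idi1 probe, not detected on any array, gives neither a level nor a bound.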
